A study of Mus musculus with 6 samples.

Results

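Messenger RNA of the obstructed mouse kidney with an intact Abl1 gene was measured in the floxed group of a study of renal scarring. The group was taken from the sample titles, and it holds 3 of the 6 libraries of the series. All 18849 genes of the deposited table were read in those 3 libraries. The animals were male C57BL/6 mice, 8 weeks old, with both Abl1 copies flanked by loxP sites and no Cre recombinase named for them in the labels. Their genotype label reads WT, whereas the design text names floxed mice. Each kidney had undergone unilateral ureteral obstruction, the tying off of a ureter, for 14 days. The other 3 libraries, from mice that lost Abl1 through Ksp-Cre, enter no value here, and unobstructed kidney was not analysed here, so a level cannot be read as a response to obstruction. The labels do not say that each library is a separate mouse, so the spread given is that between libraries.

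Blocked urine flow stretches and injures the tubule epithelium, which makes up most of the kidney cortex. Injured tubule cells give up part of their transport programme and express secreted and adhesion proteins such as osteopontin, while macrophages gather between the tubules and fibroblasts deposit collagen. RNA came from kidney tissue and not from sorted cells, so transcripts of epithelium, vessels, fibroblasts and immune cells are mixed in each library. In such bulk RNA, fewer cells of a type and less RNA per cell cannot be told apart.

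Levels are given in FPKM, the number of sequenced fragments of a gene scaled to the length of the gene in kilobases and to the total of mapped fragments in the library. Where 3 values stand in a row they belong to floxed replicates 1, 2 and 3 in that order, called libraries 1, 2 and 3. A mean is followed by the SD over these 3 libraries. A rank counts down from the gene of highest mean FPKM. A percentile is the share of the other genes, among the 18849, that lie below a gene, with tied genes placed at their middle position. The low values of the table implied about 16300000, 17850000 and 17750000 fragments, so that 1 FPKM in a transcript of 2 kb stood for 32.6, 35.7 and 35.5 fragments. Genes at 1 FPKM or more numbered 13701, 13312 and 13363, and 13539 genes had a mean at or above 1.

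Library 1 stood apart from the other two. Over the 13539 genes with a mean of at least 1 FPKM, Pearson's r of log2(FPKM + 1) was 0.964 between libraries 1 and 2, 0.964 between 1 and 3, and 0.987 between 2 and 3. As genes are no independent replicates, the coefficients are a description of the libraries. A difference of at least 2-fold was seen for 499 genes between libraries 1 and 2, for 446 between 1 and 3, and for 150 between 2 and 3. Values of every library are therefore given for the genes that carry a statement, and some results that rest on library 1 are repeated without it.

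The most abundant transcript was Spp1 (Entrez 20750), which encodes osteopontin, a secreted phosphoprotein of injured tubules and bone. It read 17744, 16828 and 10274 FPKM, a mean of 14949 ± 4074, and took 3.55% and 3.30% of the summed FPKM in libraries 1 and 2. Library 3 was the lowest, and there Spp1 ranked 2 behind Kap. Kap (Entrez 16483), the kidney androgen-regulated protein of the male proximal tubule, ranked 2 at 4383, 12948 and 10811 FPKM. Library 1 held the lowest Kap value, and the highest was 2.95 times as high. Gpx3 (Entrez 14778), the secreted glutathione peroxidase that proximal tubules make for the plasma, ranked 3 at 2737, 6014 and 3243 FPKM, with library 2 the highest.

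Eef1a1, an elongation factor of translation, ranked 5 at 3415, 3496 and 3490.2 FPKM and was almost level across libraries. The actin-binding peptide gene Tmsb4x read 3568, 2919 and 2727 FPKM and the growth-related Tpt1 3226, 2875 and 2567 FPKM. The ferritin chains Fth1 and Ftl1, which store iron, had means of 2151 ± 679 and 2014 ± 404 FPKM and were both highest in library 2. Of the 30 most abundant genes 4 encoded ribosomal proteins, Rpl23a, Rps2, Rps23 and Rpl10.

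Matrix and immune genes also stood among the 30. Mgp (Entrez 17313), the matrix Gla protein that binds calcium and limits mineral deposition, ranked 12 at 1431, 2099 and 1992 FPKM, lowest in library 1. Igfbp7, a secreted binding protein of the insulin-like growth factors, ranked 15 at 1378, 1466 and 1689.9 FPKM. Cd74, the invariant chain that guides peptide loading of MHC class II, ranked 10 at 2387, 1869 and 1920.1 FPKM, and the class II chain H2-Aa ranked 20 at 1700.1, 1119 and 1164 FPKM. Both class II genes were highest in library 1. Apoe, a lipid carrier made by macrophages and other cells, had a mean of 1753 ± 314 FPKM, Lyz2, the lysozyme of macrophages and granulocytes, 1219.9 ± 279 FPKM, and B2m, the light chain of MHC class I, 1244 ± 157 FPKM.

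The 10 most abundant genes of a library held between 8.89% and 11.6% of its summed FPKM, the 100 most abundant between 25.8% and 28.7%, and the 1000 most abundant between 56.9% and 59.7%. At 1000 FPKM or more there were 49, 42 and 36 genes, and 42 by the mean. The place of Jchain at rank 29 came from library 1 alone. Jchain, the joining chain of secreted immunoglobulin, read 3567, 13.2 and 8.02 FPKM, and its mean without library 1 was 10.6 FPKM. Gm46894 and Gm42368, predicted genes with no entry in the RefSeq table used for names, ranked 4 and 8 at 1261, 5137 and 4174 FPKM for Gm46894 and 1152, 3545 and 3511 FPKM for Gm42368. Both were lowest in library 1.

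**Figure D1:**
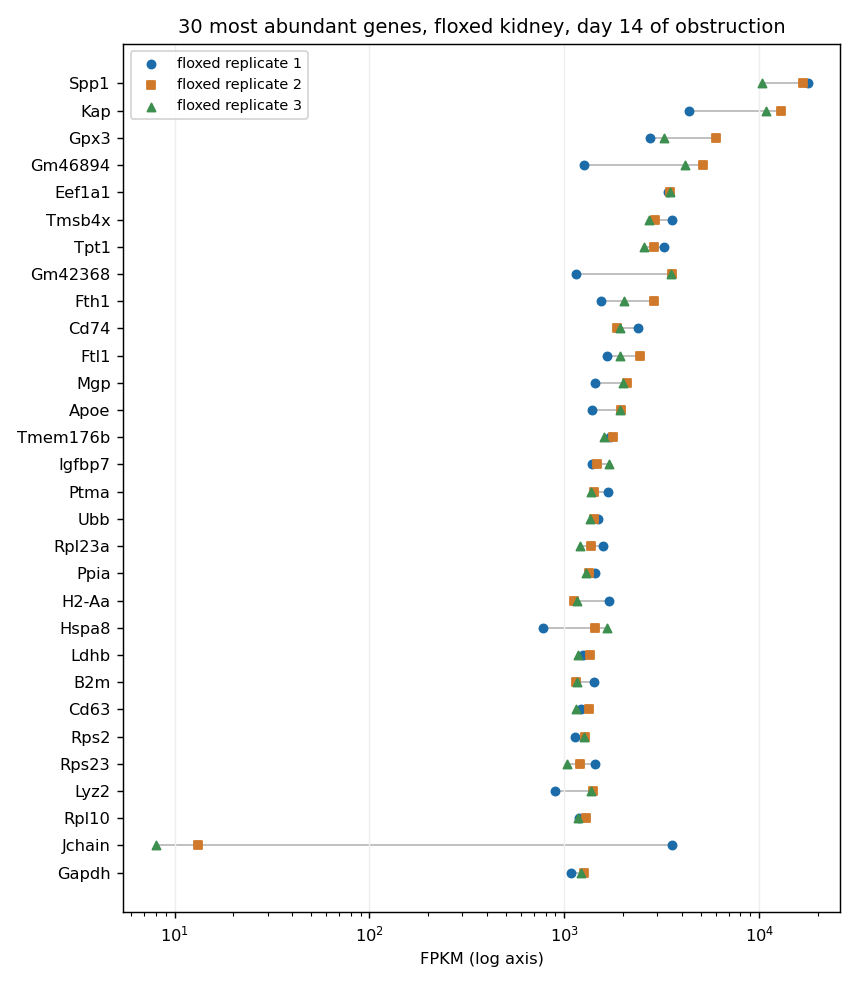
FPKM (log axis) of the 30 genes with the highest mean FPKM in the floxed kidneys, 1 point per library and a line from the lowest to the highest. Spp1 and Kap lead, most genes stay within a narrow range, and Jchain spans from 8.02 in library 3 to 3567 in library 1.

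The genes behind the design of the series were all detected. Abl1 (Entrez 11350), the tyrosine kinase that the floxed mice keep, read 18.2, 15.9 and 17.3 FPKM and ranked 5378 of 18849, with its relative Abl2 lower at 5.28, 5.56 and 6.04 FPKM. The Abl1 values of the 3 libraries lay within 1.14-fold of each other. Cdh16, kidney-specific cadherin, whose promoter drives Ksp-Cre in the other group, read 211, 201 and 235 FPKM and ranked 298. The Y-linked genes Eif2s3y, Ddx3y, Uty and Kdm5d had means of 58.5, 19.4, 11.7 and 7.05 FPKM, in samples labelled male. Nphs1 of podocytes, Lrp2 of the proximal tubule, Umod of the thick limb and Aqp2 of the collecting duct, defining transcripts of the labelled tissue, were detected in every library.

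Genes of the convoluted proximal tubule were high in the obstructed kidney. The list of the S1 and S2 segments, the first reaches of the proximal tubule, had 24 of 25 members at a mean of 1 FPKM or more, 6 at 100 or more, and a median percentile of 82.9. Below Gpx3 lay Slc34a1, the sodium phosphate cotransporter of the apical membrane, at 251, 368 and 399 FPKM, rank 188. Ass1, the arginine synthesis enzyme, read 117, 210.1 and 193 FPKM. For each of these genes the lowest value was in library 1. That held for 16 of the 25 members, against 28.7% of the 13539 genes with a mean of at least 1 FPKM, and 3 members were highest there. The median percentile of the list was 83.3, 85.6 and 82.5, so by that measure library 1 was not the lowest.

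The genes that define the early proximal tubule in many atlases lay lower. Lrp2, the endocytic receptor megalin, read 16.7, 21.0 and 28.6 FPKM and its partner Cubn 6.94, 7.40 and 9.75 FPKM. Slc5a2, the glucose transporter SGLT2, read 33.3, 42.5 and 54.3 FPKM. The organic anion transporters Slc22a6 and Slc22a8 read 12.8, 24.1 and 24.9 FPKM for Slc22a6 and 5.30, 5.62 and 4.65 FPKM for Slc22a8. Hpd and Dpys, of tyrosine and pyrimidine breakdown, were the lowest members at means of 1.33 and 0.6 FPKM. The gluconeogenic enzymes differed among themselves, with Pck1 at 119 ± 13.2 FPKM, Fbp1 at 94.8 ± 18.8 FPKM and G6pc at 9.80 ± 2.82 FPKM. Brush border genes, which build and equip the apical microvilli, had a median percentile of 80.2 and all 12 members above 1 FPKM. They were led by Cltrn, a collectrin that supports amino acid transporters, at 290.1 ± 21.1 FPKM, the protease Mep1a at 182 ± 46.4 FPKM and the scaffold Pdzk1 at 156 ± 34.4 FPKM.

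The straight segment S3 showed the widest disagreement among libraries of all proximal lists. Its 10 genes had a median percentile of 63.2, 80.4 and 77.9, and of 73.7 for the mean. Library 1 was the lowest for 8 of 10 members, against 28.7% of the 13539 genes with a mean of at least 1 FPKM. Slc22a7, an organic anion transporter, read 0.89, 26.5 and 13.6 FPKM, so library 1 lay under 1 FPKM where the others were far above. Slc7a13, an aspartate and glutamate transporter of S3, read 10.5, 24.4 and 29.7 FPKM. The oxysterol hydroxylase Cyp7b1 read 7.28, 25.8 and 16.5 FPKM, and Acy3, an aminoacylase, 156, 263 and 320.3 FPKM. These 4 genes and Kap were all lowest in library 1, while Napsa, a lysosomal aspartic protease, was nearly even at 498, 608 and 554 FPKM. Without library 1 the median percentile of the list was 78.4.

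**Figure D2:**
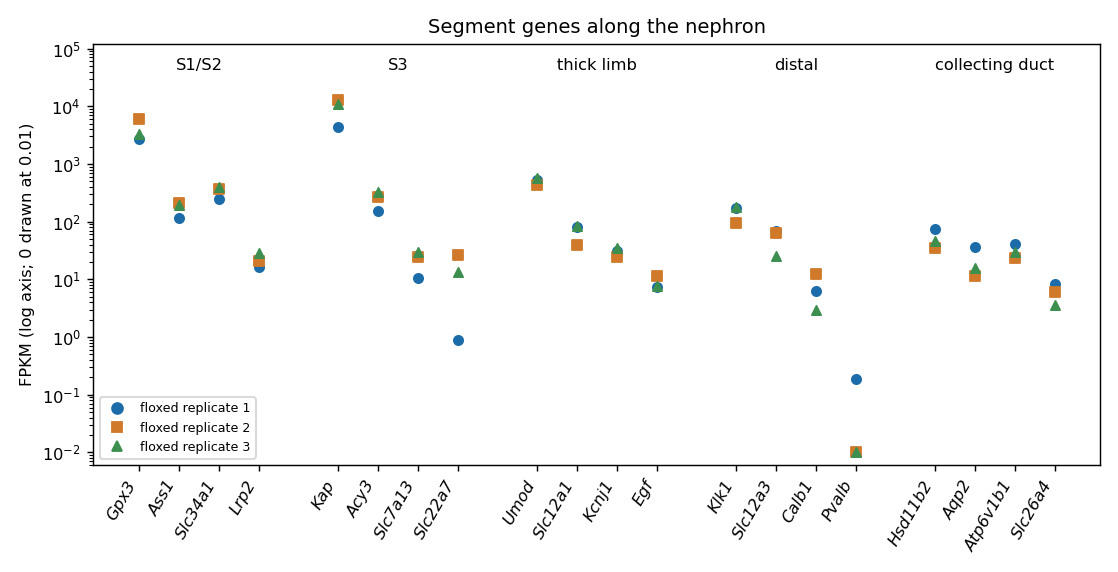
FPKM (log axis, 0 drawn at 0.01) of 20 segment genes ordered along the nephron, 1 point per floxed library. The S3 genes Kap, Acy3, Slc7a13 and Slc22a7 are lowest in library 1, whereas Aqp2, Hsd11b2, Atp6v1b1 and Slc26a4 of the collecting duct are highest there.

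Further along the nephron, the thick ascending limb was led by Umod, which encodes uromodulin, the most abundant urinary protein of healthy kidneys. Umod read 535, 434 and 581 FPKM, rank 124. Slc12a1, the sodium potassium chloride cotransporter blocked by loop diuretics, read 82.0, 39.4 and 84.1 FPKM, lowest in library 2. The potassium channel Kcnj1 read 31.0, 24.3 and 35.1 FPKM and the tight junction gene Cldn10 58.8, 51.8 and 77.5 FPKM. Egf, the epidermal growth factor precursor of the thick limb and distal tubule, was far lower than Umod at 7.46, 11.2 and 7.6 FPKM and ranked 8365. The median percentile of the 15 thick limb genes was 72.8, and 13 had a mean of at least 1 FPKM. The 8 thin limb genes were lower, at a median percentile of 53.6, and included the water channel Aqp1 at 68.6 ± 22.3 FPKM, which the proximal tubule also makes.

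Distal convoluted and connecting tubule genes varied with the library. Klk1, a kallikrein protease, led at 173, 93.9 and 178 FPKM. Slc12a3, the thiazide-sensitive cotransporter, read 67.6, 63.0 and 25.0 FPKM, and Calb1, the calcium-buffering calbindin, 6.16, 12.3 and 2.90 FPKM. Both were lowest in library 3, as were 8 of the 12 members, against 33.0% of all genes with a mean of at least 1 FPKM. Pvalb, parvalbumin of the early distal tubule, was listed at 0.19, 0 and 0 FPKM.

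Most collecting duct genes were highest in library 1. Among principal cell genes library 1 was the highest for 12 of 14, and among intercalated cell genes for 13 of 15, against 51.9% of all 13539 genes. Aqp2, the vasopressin-regulated water channel, read 36.4, 11.5 and 15.9 FPKM. Hsd11b2, the enzyme that shields the mineralocorticoid receptor from cortisol-like steroids, read 75.1, 34.9 and 45.7 FPKM, and Fxyd4, a regulator of the sodium pump, 56.4, 35.9 and 38.1 FPKM. In these 3 genes library 1 lay above libraries 2 and 3. Npnt, the most abundant principal cell member, had a mean of 62.6 FPKM. In each of the 2 lists 1 member was lowest in library 1. Of the intercalated cells, Atp6v1b1, a proton pump subunit, read 40.6, 23.2 and 29.6 FPKM and the chloride bicarbonate exchanger Slc26a4 8.45, 6.07 and 3.62 FPKM. Median percentiles were 56.5 for principal and 62.7 for intercalated cells, and 53.3 and 58.0 without library 1.

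The transcription factors and adhesion genes of tubule identity had a median percentile of 82.0, and all 14 were at or above 1 FPKM. Epcam, an adhesion molecule of all tubule epithelium, read 107, 109 and 97.4 FPKM. Hnf4a, a regulator of proximal tubule genes, had a mean of 62.6 ± 9.54 FPKM, and Pax8 of 54.7 ± 4.06 FPKM.

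Genes of tubular injury and repair were among the most abundant of all lists. All 30 had a mean of at least 1 FPKM, 16 stood at 100 or more, and the median percentile was 97.0, near the respiratory chain genes at 97.5. Besides Spp1, the list was led by Clu, the chaperone clusterin, at 1035, 1421 and 1006 FPKM, and the calcium-binding S100a11 at 1213, 1234 and 999 FPKM. Havcr1, which encodes KIM-1, a phagocytic receptor found on injured proximal cells, read 299.8, 345 and 325 FPKM and was steady. Vcam1, an adhesion molecule of incompletely repaired tubule cells and of endothelium, was steady too, at 159, 182 and 167 FPKM.

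Lcn2 departed from that pattern. It encodes NGAL, an iron-carrier-binding protein secreted by injured distal tubules and neutrophils, and read 469, 1221 and 402 FPKM. Library 2 was the highest, and the mean of 698 ± 455 became 436 FPKM without it. The intermediate filament genes Krt8, Krt7 and Krt18 of simple epithelium had means of 237 ± 37.2, 155 ± 13.5 and 136 ± 5.24 FPKM. Krt20, a keratin of urothelium and injured tubules, read 41.8, 30.7 and 34.7 FPKM. Among signalling members Ccl2, a monocyte chemokine, read 30.5, 77.2 and 125 FPKM, Hbegf, an EGF receptor ligand, 11.5, 29.1 and 38.2 FPKM, and the stress cytokine Gdf15 10.1, 37.1 and 35.8 FPKM. These 3 were all lowest in library 1. Sox9, a transcription factor of regenerating tubules, was low beside them at 5.91, 13.1 and 14.5 FPKM, and Areg, amphiregulin, was the lowest member at 2.55, 0.77 and 3.79 FPKM.

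Immediate early genes, which respond within minutes to stress or growth signals, had a median percentile of 84.3. They were led by Jund at 133 ± 17.1 FPKM, Junb at 103 ± 4.92 FPKM and Klf6 at 100.1 ± 24.8 FPKM. Fos itself was lower at 11.3, 16.4 and 14.8 FPKM. Library 1 was the lowest for 18 of 22, against the 28.7% of all genes given above, with Atf3, a stress-induced transcription factor, at 10.2, 37.0 and 43.6 FPKM. Cell cycle genes lay near the middle of the table at a median percentile of 50.9. Pcna, the replication clamp, led with 89.6 ± 8.88 FPKM, and the proliferation marker Mki67 read 8.44, 5.54 and 6.6 FPKM. Library 2 was the lowest for 18 of 20 cell cycle genes, beside 38.2% of all genes, and for 13 when libraries were scaled by median ratios, beside 27.0%.

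Among the scar matrix genes, the interstitial collagens were abundant but far below osteopontin and Mgp. Col1a2 and Col1a1, the chains of type I collagen, read 153, 193 and 202 FPKM for Col1a2 and 98.8, 116 and 123 FPKM for Col1a1 and ranked 363 and 633. Col3a1, type III collagen, read 148, 160.2 and 204 FPKM. For each of the 3 genes the order of the libraries was the same, with library 1 the lowest and library 3 the highest, over a range of at most 1.38-fold. Col18a1, a vessel and tubule basement membrane collagen, had a mean of 118 ± 25.4 FPKM. The median percentile of the 20 collagens was 63.1, and members such as Col11a1, Col24a1 and Col2a1 lay below 1 FPKM.

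Basement membrane genes had a median percentile of 68.6 and all 20 were above 1 FPKM. Col4a1 and Col4a2, the ubiquitous type IV chains, had means of 136 ± 34.3 and 69.1 ± 13.3 FPKM, and Agrn, the proteoglycan agrin, 124 ± 22.9 FPKM. The laminin chain genes Lamb1 and Lama5 had means of 53.2 ± 3.04 and 38.3 ± 11.9 FPKM. Matrix glycoproteins had a median percentile of 77.6. Beside Spp1, Mgp and Igfbp7 they included Sparc, a collagen-binding protein, at 464, 555 and 541 FPKM. Fn1, fibronectin, read 34.4, 44.5 and 60.9 FPKM, the adhesion protein Tnc 25.9, 34.5 and 31.1 FPKM and Postn, periostin, 8.87, 3.27 and 8.87 FPKM. Fn1 ranked 1867 and Postn, often used as a marker of scarring, lay under 10 FPKM in every library.

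Of the small proteoglycans, Bgn, biglycan, stood out at 288, 354 and 425 FPKM, followed by Dcn, decorin, at 78.9, 81.0 and 80.2 FPKM, while the other 8 members had means of at most 12.8 FPKM. Enzymes and chaperones of collagen processing had a median percentile of 77.2, and library 3 was the highest for 12 of 16, against 28.2% of all genes. Serpinh1, the collagen chaperone HSP47, read 177, 257 and 272 FPKM, and Pcolce, an enhancer of procollagen cleavage, 82.9, 69.5 and 81.2 FPKM. The crosslinking enzyme Lox had a mean of 28.3 ± 6.29 FPKM.

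The list of matrix turnover genes had a median percentile of 89.5, against 63.1 for the collagen list. That order holds for the list medians and not for each gene. By the mean, Col1a2, Col3a1 and Col1a1, at 183, 171 and 113 FPKM, exceeded Mmp7, the highest Mmp gene, at 106 FPKM. The lysosomal cathepsins Ctsb, Ctsl and Ctsd had means of 671 ± 137, 587 ± 62.2 and 504 ± 90.2 FPKM. Plau, urokinase, which activates plasminogen, read 306, 222 and 389.5 FPKM. The protease Mmp7, matrilysin of injured epithelium, read 51.9, 202 and 63.9 FPKM, and the inhibitor Timp1 72.0, 163 and 56.4 FPKM. Both were highest in library 2. The gelatinase Mmp2 read 9.90, 25.0 and 34.4 FPKM. Of the 22 members 17 were lowest in library 1, beside 28.7% of all genes, and 19 under median-ratio scaling, beside 43.6%.

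The TGF-beta list, the main profibrotic pathway of the kidney, had a median percentile of 61.9. The ligand Tgfb1 was level at 37.9, 42.7 and 44.1 FPKM, with Tgfb2 and Tgfb3 at means of 4.75 and 6.12 FPKM. The receptors Tgfbr1 and Tgfbr2 had means of 33.6 ± 5.19 and 49.9 ± 5.37 FPKM. The signal transducer Smad3 had a mean of 20.6 ± 1.27 FPKM. The most abundant members were the secreted matricellular genes Ccn2 and Ccn1, and they were uneven. Ccn2, connective tissue growth factor, read 93.1, 271 and 306 FPKM, and Ccn1 100.5, 239 and 296 FPKM. In both, library 1 was far below libraries 2 and 3.

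Stromal cells were represented by moderate levels. Vim, the mesenchymal intermediate filament vimentin, read 168, 127 and 169 FPKM. Acta2, smooth muscle actin of vessels and myofibroblasts, read 47.6, 34.9 and 73.0 FPKM, lowest in library 2, and the actin-binding Tagln 110.3, 99 and 131 FPKM. The platelet-derived growth factor receptors, markers of fibroblasts and pericytes, read 12.4, 18.1 and 21.2 FPKM for Pdgfra and 32.5, 29.4 and 35.0 FPKM for Pdgfrb. Median percentiles were 50.5 for 20 fibroblast genes and 65.3 for 15 smooth muscle and pericyte genes. Of these 15, 13 were lowest in library 2, against 38.2% of all genes, and 9 under median-ratio scaling, beside 27.0%. Ren1, renin of the juxtaglomerular cells, read 15.7, 27.8 and 25.5 FPKM.

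Vessel and glomerular genes shared a low library 2 with the smooth muscle and pericyte list. All 20 endothelial genes were lowest there, against 38.2% of all genes, under the deposited scale and under both other scalings tried. Emcn, a sialomucin of capillaries and veins, read 56.7, 36.9 and 62.7 FPKM. Egfl7, secreted by endothelium, read 57.4, 26.4 and 43.1 FPKM and Pecam1, an endothelial adhesion molecule, 24.2, 11.9 and 21.2 FPKM. The median percentile of the list was 55.2, and 58.6 without library 2. Podocyte genes were lowest in library 2 for 13 of 14 members, beside 38.2% of all genes. Among them Nphs1, nephrin of the slit diaphragm, read 10.4, 5.82 and 9.49 FPKM.

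Antigen presentation and macrophage genes formed the most abundant immune lists. MHC class II had a median percentile of 94.4 and class I of 94.1. Beside Cd74 and H2-Aa, the class II chains H2-Ab1 and H2-Eb1 read 1505, 984 and 971 FPKM for H2-Ab1 and 1023, 659 and 661 FPKM for H2-Eb1. Library 1 was the highest for all 10 class II members above 0 and for all 12 class I members, beside 51.9% of all genes. H2-Ea-ps, the E alpha gene that C57BL/6 mice carry in an inactive form, was listed at 0 in every library. Of class I, H2-K1 read 1292, 782 and 833 FPKM and H2-D1 912, 665 and 718 FPKM. Without library 1 the median percentiles were 92.9 and 92.8.

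The 24 macrophage and dendritic cell genes had a median percentile of 90.2, with 7 at 100 FPKM or more. The chains of C1q, the starter of the classical complement pathway that tissue macrophages secrete, were led by C1qa at 259, 393 and 357 FPKM. Csf1r, the growth factor receptor of the lineage, read 46.2, 56.3 and 60.8 FPKM, and Adgre1, which encodes F4/80, 17.0, 25.8 and 24.5 FPKM. Cd14, the lipopolysaccharide coreceptor, read 141, 113 and 62.6 FPKM and was 1 of 7 members highest in library 1. Library 2 was the highest for 16 of the 24, against 19.9% of all genes, and library 3 for 1. The lowest value was in library 1 for 16 members, against 28.7% of all genes. Cd163, a haemoglobin scavenger receptor, was the only member under 1 FPKM, at 0.62, 0.83 and 0.66. Complement genes had a median percentile of 85.8, led by C3, the central component, at 495, 609 and 311 FPKM. Cfd, factor D of adipocytes, was listed at 0 in all 3.

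Chemokines ranged over more than 3 orders of magnitude around a median percentile of 80.2. Cxcl16, a membrane-bound chemokine for T cells, led and was level at 172, 172 and 167 FPKM, and Cx3cl1, fractalkine, read 90.3, 90.7 and 117 FPKM. A highest to lowest ratio of at least 2 was reached by 13 of the 25 chemokines, against 5.10% of all genes with a mean of at least 1 FPKM. Interferon-stimulated genes had a median percentile of 83.4, led by Bst2 at 86.4 ± 5.69 FPKM and the GTPase Irgm1 at 63.4 ± 12.3 FPKM. Library 2 was the lowest for 19 of 20, beside 38.2% of all genes, and for 15 under median-ratio scaling, beside 27.0%.

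Lymphocyte, neutrophil and mast cell genes were the lowest immune lists, with median percentiles of 45.0 for T and NK cells, 37.7 for B and plasma cells, 31.2 for neutrophils and 9.09 for mast cells. Of the mast cell genes only Hdc, histidine decarboxylase, which other cells also make, passed 1 FPKM. Immunoglobulin genes were not analysed here.

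**Figure D3:**
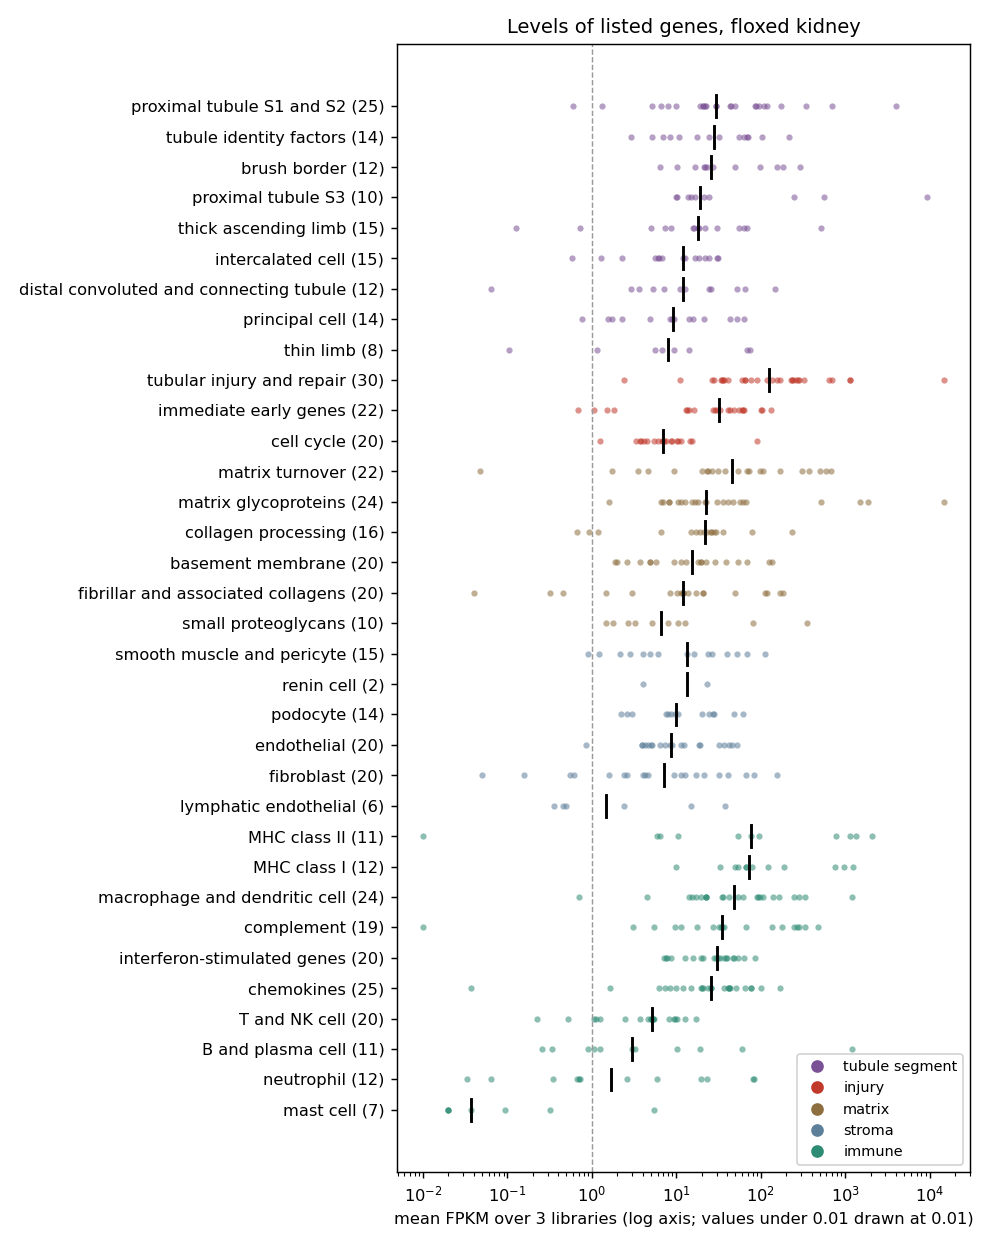
Mean FPKM over the 3 floxed libraries (log axis) of the members of the tubule, injury, matrix, stroma and immune lists, 1 point per gene and a black bar at the list median, with the number of members in parentheses and a dashed line at 1 FPKM. Of the lists drawn, tubular injury genes have the highest median, and the medians of MHC and macrophage genes lie above those of lymphocyte, neutrophil and mast cell genes.

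Ordered by median percentile, 45 lists ran from ribosomal proteins at 99.6 to mast cells at 9.09. Of the 44 neighbouring pairs in that order, 40 overlapped, in that the lowest library of the upper list lay at or below the highest library of the next. This overlap does not compare 2 lists within the same library, so it does not show that their order is uncertain. Basement membrane genes, at 67.1, 66.9 and 71.4, lay above smooth muscle and pericyte genes, at 64.1, 63.6 and 67.6, in every library. Respiratory chain genes, at 97.7, 97.6 and 97.4, lay above tubular injury genes, at 95.9, 97.0 and 97.5, except in library 3. The 4 steps without overlap were from ribosomal proteins to the respiratory chain, from MHC class I to macrophages, from tubule identity factors to chemokines, and from lymph node to skeletal muscle genes.

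The 3 libraries agreed closely for most genes. The median SD of log2(FPKM + 1) was 0.151 over the 13539 genes with a mean of at least 1 FPKM. It was 0.210 for genes of 1 to 5 FPKM and 0.119 for genes of 20 to 100 FPKM. A ratio of the highest to the lowest (FPKM + 1) of at least 2 was reached by 690 genes (5.10%), and by 6 of the 42 genes at 1000 FPKM or more (14.3%). Library 1 was the one farthest from the other two in 462 of the 690 genes (67.0%), higher in 315 and lower in 147. Leaving out any library cannot raise the ratio of a gene. The count was 149 without library 1, 456 without library 2 and 507 without library 3. The median SD was 0.0795, 0.148 and 0.144 in the same order. Library 2 was farthest in 145 genes and library 3 in 83.

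Directions within the group are read against all 13539 genes. On the deposited scale library 1 was the highest in 51.9% and the lowest in 28.7% of them, library 2 in 19.9% and 38.2%, and library 3 in 28.2% and 33.0%. Scaled by median ratios, the 3 libraries were the highest in 37.3%, 29.6% and 33.0% and the lowest in 43.6%, 27.0% and 29.5%. Counts of members near these shares are not a result about the members.

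**Figure D4:**
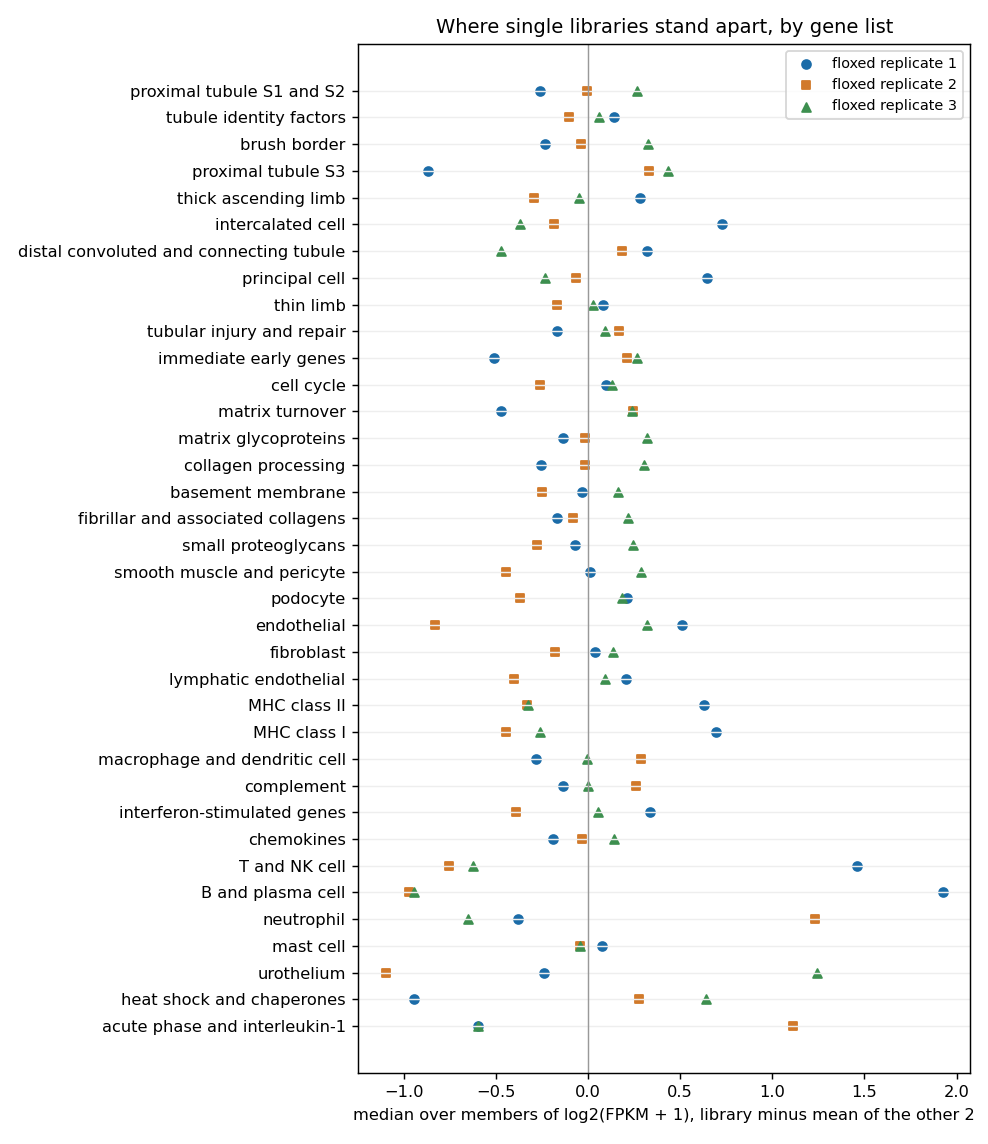
Median over the members of each list of log2(FPKM + 1) in a library minus the mean of the other two, 1 point per floxed library, with 2 of the 4 lists added after the values were seen at the bottom. Library 1 lies far to the right for B and plasma cell and T and NK cell genes, library 2 for neutrophil and acute phase genes, and library 3 for urothelium.

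Library 1 was set apart by lymphocyte and plasma cell transcripts. All 11 B and plasma cell genes and 19 of 20 T and NK cell genes were highest there, under each scaling, beside 51.9% of all genes on the deposited scale. The members of the B and plasma cell list summed to 3841, 25.4 and 19.0 FPKM. Mzb1, a chaperone of immunoglobulin assembly, read 174, 2.16 and 1.95 FPKM, and Pou2af1, a B cell transcription coactivator, 35.3, 0.71 and 0.33 FPKM. Cd79a, a signalling chain of the B cell receptor, read 54.7, 1.54 and 1.69 FPKM, and Derl3, of endoplasmic reticulum protein disposal in secretory cells, 32.9, 1.33 and 2.02 FPKM. Slpi, a secreted protease inhibitor of mucosal epithelium, showed the same shape at 578, 17.6 and 4.4 FPKM. In all of these, libraries 2 and 3 lay under 20 FPKM and library 1 above 30.

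T cell genes differed less steeply. Cd3g, a chain of the T cell receptor complex, read 35.7, 8.78 and 6.88 FPKM, the kinase Lck 23.5, 7.25 and 7.26 FPKM and Nkg7, of cytotoxic granules, 18.8, 4.26 and 7.35 FPKM. The T and NK cell members summed to 213, 61.8 and 64.9 FPKM. Ccl19, a chemokine that draws lymphocytes and dendritic cells, read 46.6, 8.06 and 7.51 FPKM, and Ccl5, made by activated T cells, 74.2, 22.6 and 26.1 FPKM. Of the 4 lymph node genes found, the chemokine Ccl21b read 1.52, 4.89 and 2.45 FPKM, the vessel addressin Madcam1 0.92, 1.04 and 0.76 FPKM, the chemokine receptor Cxcr5 1.96, 0.21 and 0.14 FPKM and Glycam1 0.1, 0 and 0 FPKM. Their part in the values of library 1 was not tested. Without library 1 the median percentile was 26.9 for B and plasma cells and 38.2 for T and NK cells. Whether these cells bear on the other differences of library 1 was not tested either.

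Library 2 was set apart by neutrophil transcripts, and less steeply by macrophage and complement genes. It was the highest for 16 of 24 macrophage and dendritic cell genes and 11 of 18 complement genes above 0, against 19.9% of all genes. Under median-ratio scaling these counts were 17 and 13, beside 29.6%. The C1q genes stand in both lists. The median log2 difference from the other libraries was 1.23 for neutrophil, 0.289 for macrophage and 0.260 for complement genes. S100a8 and S100a9, the calprotectin chains of neutrophils, read 28.4, 187 and 33.9 FPKM for S100a8 and 25.6, 193 and 22.5 FPKM for S100a9. Csf3r, the granulocyte growth factor receptor, read 12, 45.1 and 13.0 FPKM, and Il1b, interleukin-1 beta, 10.5, 35.3 and 13.5 FPKM. Library 2 was above the other libraries in each of the 4 genes, and in 9 of the 12 neutrophil genes, against 19.9% of all genes. That share covers genes with a mean of at least 1 FPKM, which only 6 of the 12 reached, so the count includes members that rest on few fragments. The granule genes Elane and Mpo of immature neutrophils stayed at or below 0.13 FPKM. The neutrophil members summed to 83.5, 482 and 87.7 FPKM, and without library 2 the median percentile of the list was 26.1.

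A list of acute phase and interleukin-1 genes, written after the values were seen, was highest in library 2 for 21 of 22 members, beside 19.9% of all genes, and nothing is read from that count. The fibrinogen chains Fgg and Fga read 29.0, 97.1 and 20.7 FPKM for Fgg and 18.8, 64.5 and 13.6 FPKM for Fga, and the haptoglobin gene Hp 9.53, 36.8 and 10.4 FPKM. Chil1, a chitinase-like secreted protein, read 2.02, 30.4 and 2.69 FPKM, and the neutrophil chemokine Cxcl5 21.3, 88.2 and 19.2 FPKM. Hcar2, a receptor for hydroxybutyrate and niacin, read 1.47, 20.3 and 2.98 FPKM. The 6 liver and pancreas genes found summed to 70.2, 51.3 and 51.6 FPKM. Of these, Alb, the albumin gene, was at 1.24, 0.47 and 0.49 FPKM, Ttr, transthyretin, at 6.17, 15.7 and 16.6 FPKM and the liver protease inhibitor gene Serpina1a at 54.8, 25.2 and 25.1 FPKM. Their part in the values of library 2 was not tested.

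Library 3 was set apart by urothelium, the lining of the renal pelvis. It was the highest for 9 of the 10 urothelial genes, against 28.2% of all genes. Upk1b and Upk3a, uroplakins of the luminal membrane, read 7.42, 4.55 and 20.4 FPKM for Upk1b and 2.92, 2.43 and 12.6 FPKM for Upk3a. The basal keratin Krt5 read 18.1, 10.8 and 32.2 FPKM and Psca, a surface antigen of urothelium, 11, 8.33 and 28.6 FPKM. The order was the same in these 4 genes, library 2 the lowest and library 3 the highest. The members summed to 76.1, 43.2 and 158 FPKM, and without library 3 the median percentile of the list went from 48.8 to 39.2.

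**Figure D5:**
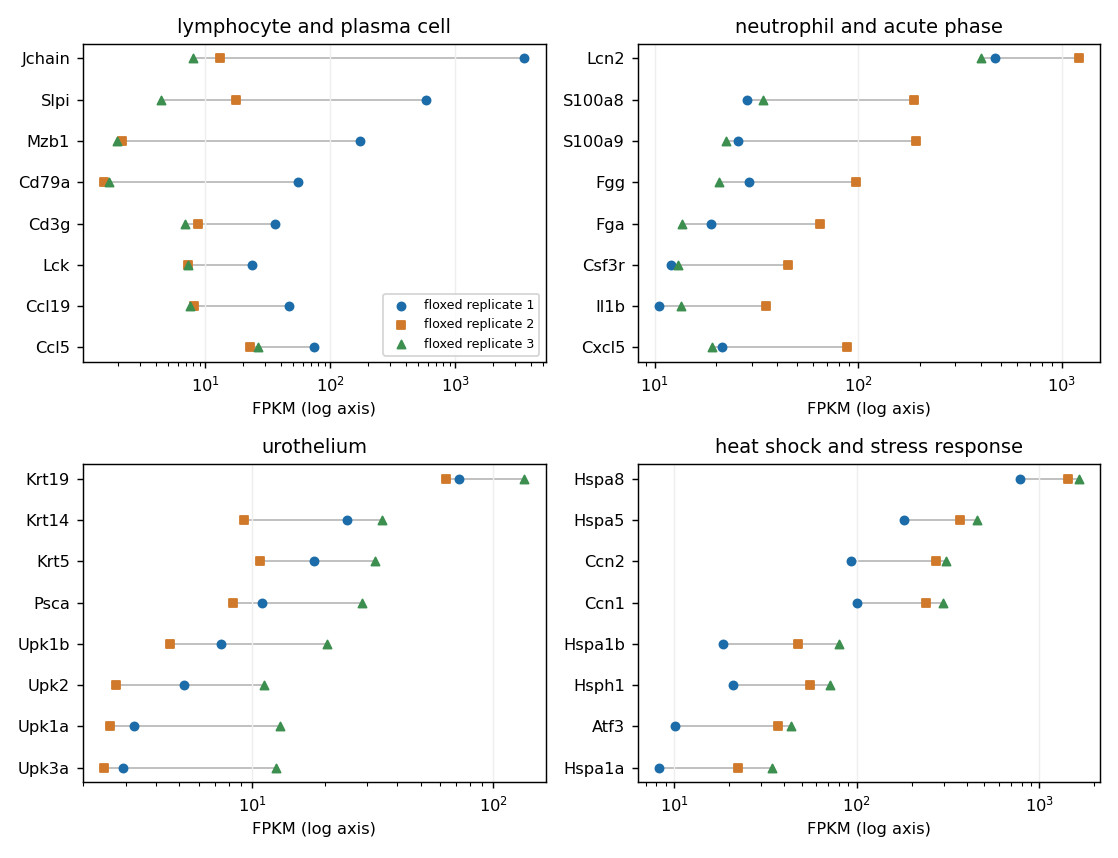
FPKM (log axis) of 8 genes from each of 4 groups, 1 point per floxed library joined by a line. The genes were picked for the figure and are not whole lists, and some come from lists written after the values were seen. Slpi is drawn with the lymphocyte and plasma cell genes, and Ccn1 and Ccn2 with the heat shock genes. Of the genes drawn, library 1 is the highest for the lymphocyte and plasma cell panel and the lowest for heat shock and stress. Library 2 is the highest for the neutrophil and acute phase panel, and library 3 for the urothelium panel.

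Heat shock genes, which encode chaperones that refold damaged proteins, were all lowest in library 1. This list was also written after the values were seen, so its count of 16 of 16, beside 28.7% of all genes, is a description from which nothing is read. The constitutive chaperone Hspa8 ranked 21 at 781, 1441 and 1656 FPKM, and Hspa5 of the endoplasmic reticulum read 181, 369 and 456 FPKM. Hsph1, a nucleotide exchange factor, read 21.0, 55.6 and 71.7 FPKM. The stress-inducible Hspa1a and Hspa1b read 8.24, 22.3 and 34.3 FPKM for Hspa1a and 18.5, 47.8 and 80.4 FPKM for Hspa1b, so library 3 lay about 4-fold above library 1 in both. These 2 genes are near-identical copies, and how reads were divided between them is uncertain.

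Heat shock factors are known to bind repeats of the bases GAA in alternating orientation. The promoters of 3 members are shown to let the motif be seen, and its part in the levels was not tested. Windows of the 250 bases before the start were taken from the RefSeq promoter table of build GRCm38.p6, whereas the FPKM values rest on build mm9. The motif searched was GAANNTTC, which reads the same on both strands. Of the 16 genes 12 had at least 1 window, 17 windows in all, and 6 windows (35.3%) held the motif, each of another gene. It stood in 5.22% of the 13799 windows of genes with a mean of at least 1 FPKM. As the family is known for this element and was chosen after the values were seen, and some windows overlap or are near copies, nothing is read from these shares. Hspa5, Hsph1, Bag3, Dnajb1, Hspa4 and Hsp90b1, also lowest in library 1, held no match, and a match is a description of letters and not a binding site. Capitals mark the motif below, in the windows of Hspa1a at chr17:34972157-34972406 on the minus strand, Hspa1b at chr17:34959239-34959488 on the minus strand and Hspe1 at chr1:55087898-55088147 on the plus strand. In both Hspa1 windows it begins 104 bases before the start, and those windows differ at 3 positions. Hspe1, the mitochondrial co-chaperonin, read 144, 198 and 189 FPKM, and its window shares 215 bases with that of the neighbouring Hspd1, which read 81.1, 134 and 142 FPKM.
Hspa1a: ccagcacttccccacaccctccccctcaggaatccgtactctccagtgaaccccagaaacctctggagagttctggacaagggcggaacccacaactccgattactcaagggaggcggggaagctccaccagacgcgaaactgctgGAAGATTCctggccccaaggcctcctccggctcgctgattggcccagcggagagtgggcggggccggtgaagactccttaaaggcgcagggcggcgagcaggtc
Hspa1b: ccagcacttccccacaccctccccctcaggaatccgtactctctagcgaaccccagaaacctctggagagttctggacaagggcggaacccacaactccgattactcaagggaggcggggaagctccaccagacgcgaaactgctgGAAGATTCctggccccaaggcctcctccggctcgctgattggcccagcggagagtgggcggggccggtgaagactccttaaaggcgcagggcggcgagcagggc
Hspe1: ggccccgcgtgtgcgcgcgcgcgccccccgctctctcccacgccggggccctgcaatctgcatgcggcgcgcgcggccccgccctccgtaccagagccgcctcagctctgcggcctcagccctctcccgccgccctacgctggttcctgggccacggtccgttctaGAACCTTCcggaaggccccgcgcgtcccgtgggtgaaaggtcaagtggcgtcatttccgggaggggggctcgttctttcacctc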

How the data were processed

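Total RNA of kidney tissue was extracted with TRIzol and sequenced on Illumina libraries, per the labels' protocols. The deposited table holds FPKM values made by the authors, rounded to 2 decimals, for 18849 genes with Entrez identifiers and symbols, per the file headers. The submitters' processing notes name mm9 as the genome build. For the aligner, counting tool, annotation and strand use, nothing is stated in the sources used here, so overlapping, antisense and near-identical genes cannot be told apart. FPKM is relative to the whole library, so a few abundant genes can shift the rest.

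Only the 3 floxed columns were used, with no contrast and no test. Columns were matched to samples by their descriptions. Means, SDs, ranks, percentiles, highest to lowest ratios of FPKM + 1 and log2(FPKM + 1) were computed with Python 3.11.15, numpy 2.4.6, pandas 2.3.3 and scipy 1.17.1, and drawn with matplotlib 3.10.9. The scripts were tested on simulated data. Depth was estimated from the spacing of low values in single-transcript genes of 300 to 2000 nucleotides, of which 66.1%, 67.1% and 67.5% lay within 0.2 of a whole fragment. The depth was picked for the best match, and part of the values would lie that near a whole fragment at any depth. That estimate is therefore approximate. RefSeq names (GRCm38) were found for 18792 Entrez identifiers, and 26 symbols turned into dates were restored.

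The 47 gene lists, and the choice of these libraries, were made with earlier results of these data known, and 4 lists were added after the values were seen. Of 687 listed genes 679 were found. The text names Abl1, Cdh16 and the 5 marker genes Spp1, Kap, Gpx3, Col1a1 and Mgp, the 30 genes of highest mean, the 4 highest and the defining members of each list, the 20 genes of largest ratio at a mean of at least 5 FPKM, up to 4 members by ratio in lists that moved together, and members at 0. Other genes were named after their values were seen, and some that the rule takes are not reported here. Alternatives were a pseudocount of 0.1, other level minimums, TPM and median-ratio scaling, lists without low or shared members, and each library left out.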

Additional observations from a re-analysis of the deposited data

How the results depend on the processing

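No paired analysis was possible because a single group was described and no result came from a test. Ranks and percentiles within a library do not change with its scale. TPM scaling about doubled all values and moved 48 of 51 list medians in FPKM, whereas median-ratio factors of 0.946, 1.03 and 1.02 moved none.

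The median SD of log2(FPKM + 1), 0.151, ran from 0.0795 to 0.148 with a library left out. Genes with a highest to lowest ratio of at least 2, 690 in all, ran from 149 without library 1 to 507 without library 3, with 456 without library 2, and numbered 1136 with a pseudocount of 0.1, 1027 under TPM scaling and 415 at a mean of at least 5 FPKM.

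Restricting lists to members of at least 1 FPKM moved the median percentile of S1 and S2 to 86.1, thin limb to 57.3, fibroblast to 63.0, smooth muscle to 67.7, lymphatic endothelium to 68.5, macrophage to 91.7, B and plasma cell to 49.2, neutrophil to 76.7, mast cell to 46.0, erythrocyte to 82.8, adipocyte to 94.1, adrenal cortex to 31.8, skeletal muscle to 28.7, liver and pancreas to 64.7 and lymph node to 37.7, since low members were removed. Without members shared between lists, lymphatic endothelium came to 23.3 and macrophage to 86.4. With a library left out, the percentile ran from 73.2 to 80.6 for matrix glycoproteins, 57.5 to 60.2 for podocytes, 8.27 to 10.9 for mast cells, 84.7 to 87.7 for complement, 13.1 to 18.0 for skeletal muscle and 23.2 to 28.3 for lymph node. The other percentiles among the 45 ordered lists moved by less than their spread between libraries under these settings. At this depth, values far below 1 FPKM rest on few fragments.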

Other observations

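The 24 nuclear genes of the respiratory chain had a median percentile of 97.5, and 19 stood at 100 FPKM or more. Cox4i1, a subunit of cytochrome oxidase, read 810.0, 776 and 715 FPKM, and Atp5b, of the ATP synthase, 364, 464 and 537 FPKM. The 20 genes of fatty acid oxidation, the main fuel pathway of proximal tubules, had a median percentile of 87.2. Acadl and Acadm, dehydrogenases of long and medium chains, read 111, 108 and 108 FPKM for Acadl and 86.1, 114 and 114 FPKM for Acadm. The regulators Ppara and Ppargc1a were low beside them, at 3.72, 6.32 and 5.21 FPKM for Ppara and 8.6, 6.99 and 5.91 FPKM for Ppargc1a. Of the 27 ribosomal protein genes 26 stood at 100 FPKM or more, with Rps6 the exception at 24.8, 26.4 and 22.4 FPKM. Library 1 was the highest for 21 of these 27 on the deposited scale (51.9% of all genes) and for 9 under median-ratio scaling (37.3% of all genes).

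Median percentiles of the lists of other tissues and of lymphatic vessels were 9.30 for adrenal cortex, 14.6 for adipocytes, 17.6 for skeletal muscle, 27.0 for lymph node, 29.5 for lymphatic endothelium and 40.7 for liver and pancreas. Nr5a1, a steroidogenic factor, and Plin1, of fat droplets, were listed at 0 in every library. Fabp4, which adipocytes share with capillaries and macrophages, read 83.7, 47.6 and 87.1 FPKM.

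Globin transcripts of red cells were present and uneven. Hbb-bs and Hbb-bt, the beta globin genes of the C57BL/6 allele, read 35.6, 50.1 and 109 FPKM for Hbb-bs and 11.1, 13.7 and 32.5 FPKM for Hbb-bt, both highest in library 3. Hba-a1 read 47.2, 44.3 and 80.3 FPKM. The gene of the other allele, Hbb-b2, was listed at 0 in every library.

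Predicted genes made up 7 of the 20 genes of largest spread at a mean of at least 5 FPKM. Gm41885, Gm40814 and Gm41844 read 13.8, 312 and 546, 2.44, 28.2 and 43.9 FPKM for Gm40814 and 7.88, 95.0 and 112 FPKM for Gm41844. Gm7429, Gm15921 and LOC102641086 had the opposite shape, at 113, 0 and 0.99, 57.4, 1.07 and 0.73 FPKM for Gm15921 and 21.9, 0.59 and 0 FPKM for LOC102641086, while Gm2274 read 11.4, 0 and 4.02 FPKM. Of 18 predicted genes at a mean of at least 5 FPKM with no entry in the RefSeq table, 14 were lowest in library 1, against 31.5% of all 10445 genes at that level. The remaining genes of that 20 included Cyp2a4, a steroid hydroxylase, at 5.89, 72.0 and 37.2 FPKM, the lymphocyte adaptor Lax1 at 30.1, 2.22 and 1.34 FPKM and Ly6c2, a surface protein of monocytes and T cells, at 30.9, 2.15 and 2.21 FPKM.

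Of 14 keratin genes in a list written after the values were seen, 9 were highest in library 3, beside 28.2% of all genes, among them Krt8 and Krt18 of simple epithelium, and 5 in library 1, among them Krt20. Krt14, Krt15 and Krt19 of basal and urothelial layers read 24.9, 9.29 and 34.8 FPKM for Krt14, 7.01, 10.4 and 26.2 FPKM for Krt15 and 72.0, 63.5 and 135 FPKM for Krt19.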
